A study of Mus musculus with 30 samples.

Results

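The subject here is brain tumors that arose in mice after Cre driven by the GFAP promoter was injected into the subventricular zone (SVZ), set against normal brain. The 3 tumor arrays, SVZ tumors 1 to 3, were compared with 4 arrays of normal cortex and 4 of normal hippocampus, so 11 of the 30 arrays of the series entered the comparison. No array of normal SVZ is among the samples used here. A gene was therefore counted only where the tumors differed in the same direction from normal cortex and from normal hippocampus. The labels give the normal samples a null promoter and state no strain, age, sex or allele for any group, nor the cassette that Cre switched on. Nor do they say whether each array had an animal of its own, so the error behind each p-value is that among these samples and may be technical. The other 19 arrays were tumors of other regions or promoters: 4 GFAP cortex tumors, 7 GFAP hippocampus tumors, 4 NES hippocampus tumors and 4 SYN1 cortex tumors.

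The SVZ lines the lateral ventricles beside the striatum and keeps neural stem cells in adult mice. These stem cells are a kind of astrocyte and use the GFAP promoter, as mature astrocytes do, and they give rise to dividing progenitors and to neuroblasts that move to the olfactory bulb. A Cre driven by GFAP can thus reach both stem cells and astrocytes of the region. Glioblastoma, the malignant glial tumor in the title of the series, is known for dividing cells, new vessels, dense extracellular matrix and many infiltrating macrophages.

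RNA was extracted with Trizol and hybridised to Affymetrix whole-transcript arrays, and the values are log2 signal, so a difference of 1 is a 2-fold change. Within the 3 groups the correlation between arrays, taken across genes, ran from 0.994 to 0.996 in normal cortex, from 0.991 to 0.995 in normal hippocampus and from 0.940 to 0.983 in the SVZ tumors. Tumors 1 and 2 correlated at 0.983, and tumor 3 at 0.940 with tumor 1 and 0.950 with tumor 2. The fit pooled the spread over all 30 arrays, among them GFAP cortex tumor 1 and GFAP hippocampus tumors 5 to 7, which stand apart from the rest of their groups. Without those 4 arrays the count of called genes rose from 5626 to 7576. The interquartile range over genes was 1.878 in GFAP cortex tumor 1 and 2.739 to 2.814 in the rest of its group. It was 2.18 to 2.401 in GFAP hippocampus tumors 5 to 7 and 2.629 to 3.028 in tumors 1 to 4 of that group. The maximum signal of GFAP hippocampus tumor 1, 15.238, lay between those of tumors 2 to 4 (14.034 to 14.522) and 5 to 7 (15.678 to 16.07). Normal cortex expressed the cortical projection neuron gene Tbr1 (10.7 to 10.99, against 9.44 to 9.61 in normal hippocampus), and normal hippocampus the dentate granule cell gene Prox1 (9.84 to 10.2, against 7.80 to 7.99 in normal cortex).

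SVZ tumors differed from both normal tissues in the same direction in 5626 of 19938 genes (28.2%; limma, Benjamini-Hochberg adjusted p under 0.05 in each comparison). Of these, 2411 (12.1% of genes tested) were higher and 3215 (16.1%) lower. That balance moved with the scaling: with each array centred on its median 3041 were higher and 3087 lower, and with quantile normalization 3286 and 3184. The difference was at least 2-fold against both tissues in 1496 of the higher and 1840 of the lower genes, and at least 8-fold in 108 and 82. Against normal cortex alone 6769 genes (34.0%) passed, and against normal hippocampus alone 6354 (31.9%). These comparisons share the 3 tumors. Counting on both tissues removed 1142 genes that passed against cortex only and 727 that passed against hippocampus only. All 3 tumors lay on one side of all 8 normal arrays in 8429 genes (42.3%), and 5482 of the called genes were among them.

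**Figure D1:**
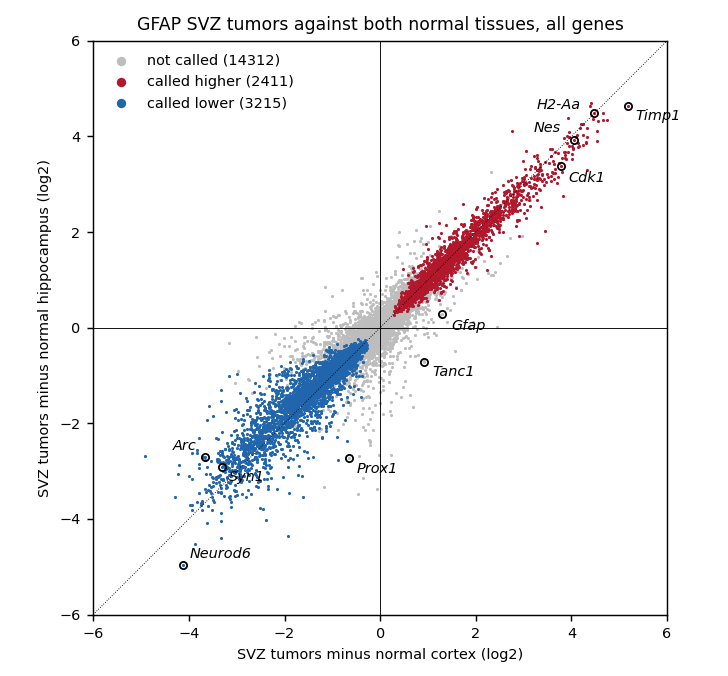
Each point is 1 of 19938 genes, with the log2 difference of SVZ tumors (3 arrays) from normal cortex (4 arrays) on the horizontal axis and from normal hippocampus (4 arrays) on the vertical axis. Called genes lie in the upper right (2411 higher) and lower left (3215 lower); Tanc1, called in opposite directions, and Prox1, called against hippocampus only, lie off the dotted line of equal differences.

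Of the 3 genes whose promoters drove Cre in the series, Nes rose, Syn1 fell and Gfap was not called. Gfap, the intermediate filament of astrocytes, had levels of 9.603, 10.4 and 11.2 in tumors 1 to 3, 9.02, 9.59, 8.801 and 8.96 in normal cortex 1 to 4 and 10.4, 10.1, 9.96 and 9.95 in normal hippocampus 1 to 4. Tumors 1 and 2 lay inside the range of the normal arrays and tumor 3 above it. The differences did not pass (1.29 against cortex and 0.28 against hippocampus, larger limma adjusted p = 0.838). Nes, the filament gene of neural stem and progenitor cells, measured 11.3, 11.7 and 10.7 in tumors 1 to 3, 7.02, 7.22, 6.78 and 7.57 in normal cortex 1 to 4 and 7.26, 7.11, 7.68 and 7.02 in normal hippocampus 1 to 4. Every tumor was far above every normal array, and Nes was 15.9-fold higher than the mean of both normal tissues (log2 difference 3.99 ± 0.47, standard error of the limma fit; larger adjusted p = 9.1e-06). Syn1, a synaptic vesicle gene of neurons, measured 8.48, 9.04 and 10.4 in tumors 1 to 3, 12.8, 12.6, 12.6 and 12.5 in normal cortex 1 to 4 and 12.1, 12.2, 12.4 and 12.2 in normal hippocampus 1 to 4. Tumor 3 kept the most Syn1 signal, still below each normal array, and the gene was 8.65-fold lower (-3.11 ± 0.57, larger adjusted p = 0.00101).

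The 15 genes that rose most in SVZ tumors were led by Timp1, with MHC class II, acute-phase and macrophage genes among the rest. Timp1, an inhibitor of matrix metalloproteinases, measured 12.5, 12.6 and 12.8 in tumors 1 to 3, 6.37, 8.05, 6.63 and 8.73 in normal cortex 1 to 4 and 7.89, 6.84, 9.92 and 7.34 in normal hippocampus 1 to 4. The tumors were close together while the normal arrays were widely spread, with normal hippocampus 3 the highest of them. Timp1 was 30.1-fold higher (4.91 ± 0.59, larger limma adjusted p = 1.86e-05). Lcn2, an acute-phase lipocalin that reactive astrocytes secrete, measured 11.6, 12.7 and 12.1 in tumors 1 to 3, 6.86, 8.81, 7.14 and 8.07 in normal cortex 1 to 4 and 7.83, 6.62, 7.16 and 8.09 in normal hippocampus 1 to 4. It was 23.4-fold higher (4.55 ± 0.68, larger adjusted p = 8.34e-05), with no overlap between tumor and normal arrays. H2-Aa, a chain of MHC class II, measured 11.9, 10.5 and 10.1 in tumors 1 to 3, 6.37, 6.25, 6.096 and 6.63 in normal cortex 1 to 4 and 6.24, 6.53, 6.13 and 6.35 in normal hippocampus 1 to 4. Normal levels were low and alike, tumor 1 was the highest array, and H2-Aa was 22.4-fold higher (4.48 ± 0.45, larger adjusted p = 9.52e-07). Cd74, the invariant chain that accompanies MHC class II, followed with 11.8, 10.6 and 10.3 in tumors 1 to 3 against 5.91 to 6.797 in the 8 normal arrays (4.51, larger adjusted p = 8.36e-06).

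The other genes among the 15 with the largest rise were Crct1 (4.58), the annexin Anxa1 (4.53), the interferon-inducible Ifi205 and Ifi207 (4.398 and 4.25), the secreted Wfdc17 (4.49), the focal adhesion gene Tes (4.44), the macrophage lysozyme Lyz2 (4.25), Ms4a6d (4.23), the endothelial and myeloid receptor Cd93 (4.18), the calcium-binding S100a6 (4.33) and the membrane protein Emp3 (4.13). Their larger limma adjusted p ran from 5.71e-07 for Lyz2 to 0.00371 for Crct1. Normal hippocampus 3 was the highest of the 8 normal arrays in 11 of these 15 genes. Over all called higher genes it was the highest normal array in 627 (26%), against 10.5% of all genes. S100a6 measured 10.3 there and 7.08 to 8.19 in the other normal arrays. Each of the 15 genes was called in every alternative run, that without normal hippocampus 3 included.

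**Figure D2:**
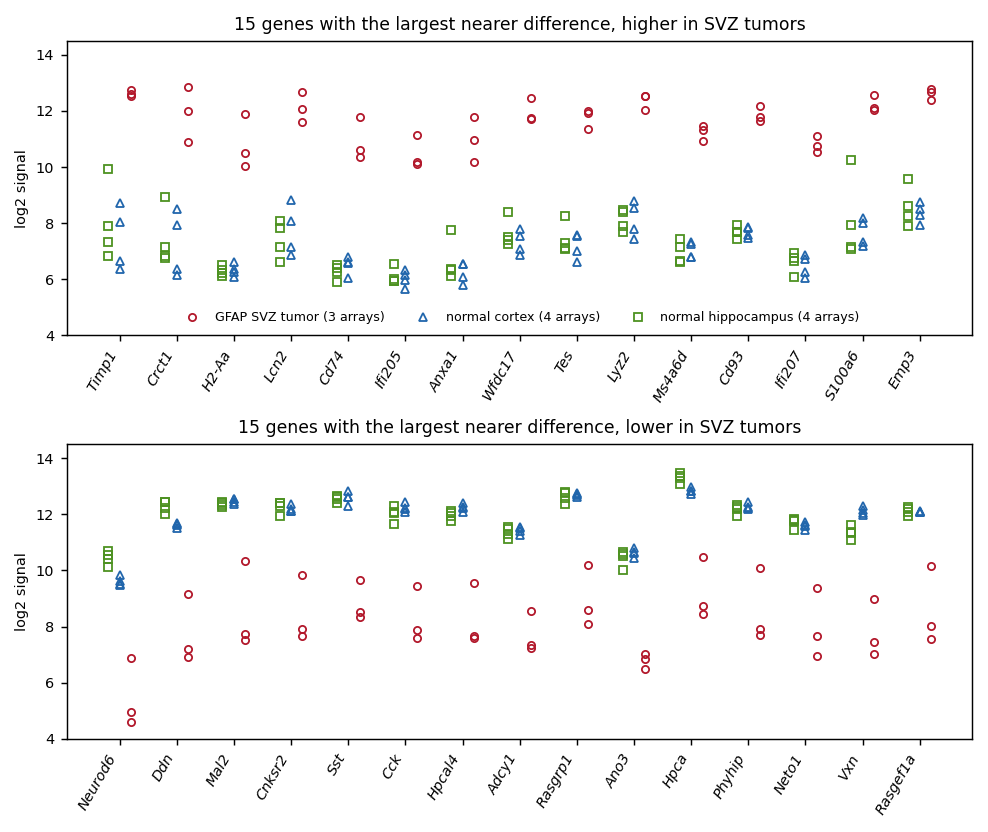
Log2 signal of the 15 genes with the largest rise (upper panel) and the 15 with the largest fall (lower panel), ranked by the smaller of both tissue differences; red circles are the 3 SVZ tumors, blue triangles the 4 normal cortex arrays and green squares the 4 normal hippocampus arrays. Tumor and normal arrays do not overlap for any of these genes, and 1 tumor, tumor 3, lies above the other tumors in most genes of the lower panel.

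The 15 genes that fell most were led by Neurod6. Neurod6, a transcription factor of excitatory forebrain neurons, measured 4.61, 4.96 and 6.88 in tumors 1 to 3, 9.84, 9.499, 9.51 and 9.63 in normal cortex 1 to 4 and 10.7, 10.1, 10.6 and 10.4 in normal hippocampus 1 to 4. Tumor 3 was well above tumors 1 and 2 and below every normal array, and Neurod6 was 23.4-fold lower (-4.55 ± 0.49, larger limma adjusted p = 5.2e-06). Sst, the somatostatin peptide of inhibitory interneurons, measured 8.53, 8.35 and 9.65 in tumors 1 to 3, 12.8, 12.6, 12.3 and 12.6 in normal cortex 1 to 4 and 12.7, 12.4, 12.6 and 12.5 in normal hippocampus 1 to 4. All tumors were below all normal arrays, 13.2-fold on average (-3.73 ± 0.53, larger adjusted p = 5.87e-05). Cck, another neuropeptide, fell 14.1-fold (7.602, 7.86 and 9.45 against 11.7 to 12.4). The postsynaptic gene Ddn (-4.19), the calcium sensors Hpca (-3.85) and Hpcal4 (-3.84), the adenylyl cyclase Adcy1 (-3.696), the glutamate receptor partner Neto1 (-3.66) and the Ras regulators Rasgrp1 (-3.702) and Rasgef1a (-3.53) were in the same group. Mal2 (-3.88), Cnksr2 (-3.77), Ano3 (-3.74), Phyhip (-3.67) and Vxn (-3.92) completed the 15. Their larger adjusted p ran from 5.2e-06 for Neurod6 to 0.00201 for Cck. Tumor 3 was the highest tumor in 14 of the 15, Ano3 being the exception (7.03, 6.496 and 6.85).

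The lower genes took in those of neurons of both transmitter types and of synapses. Of 23 neuron genes measured 21 were lower and 0 higher (16.1% of all genes were lower), with a median difference of -2.66, against -0.0027 over all genes. Slc17a7, the glutamate transporter of excitatory synaptic vesicles, measured 8.46, 8.35 and 10.7 in tumors 1 to 3, 13.04, 12.8, 12.7 and 12.7 in normal cortex 1 to 4 and 12.7, 12.4, 12.8 and 12.6 in normal hippocampus 1 to 4. Gad1, which makes GABA in inhibitory neurons, measured 7.68, 8.55 and 9.62 in tumors 1 to 3, 11.7, 11.6, 11.5 and 11.4 in normal cortex 1 to 4 and 11.5, 11.3, 11.4 and 11.5 in normal hippocampus 1 to 4. Both fell (-3.54 and -2.88, larger limma adjusted p = 0.00334 and 0.00109), and for both tumor 3 was nearest to normal brain. The neuronal splicing factor Rbfox3, known as NeuN (-3.25), and the kinase Camk2a (-3.17) fell too. The neurofilament genes Nefl (-0.59) and Nefm (0.11) were not called.

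All 15 synapse genes were lower, with a median of -2.98. The NMDA receptor subunits Grin2a (7.08, 7.13 and 8.81 in tumors 1 to 3 against 11.1 to 11.7 in normal brain; -3.66) and Grin2b (-3.56), the GABA receptor subunit Gabrb2 (-3.51) and the AMPA receptor subunit Gria2 (-3.38) led them. The larger limma adjusted p of these receptor genes lay between 0.000111 for Grin2a and 0.00296 for Gria2. All 16 ion channel and pump genes were lower too, with a median of -2.71. The sodium channel Scn8a (-3.35), the potassium channels Kcnh7 (-3.64) and Kcnd2 (-3.04) and the calcium channel Cacna1e (-3.07) had the largest nearer differences. Tumor 3 was the highest of the 3 tumors in 20 of 23 neuron, 15 of 15 synapse and 13 of 16 channel genes. In bulk tissue, fewer neurons and less RNA per neuron cannot be told apart.

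Genes that neurons switch on when they fire were lower as well, in 8 of 13. Arc, which acts at active synapses, measured 7.75, 7.55 and 8.299 in tumors 1 to 3, 11.3, 12.02, 11.4 and 11.4 in normal cortex 1 to 4 and 10.4, 10.6, 10.7 and 10.5 in normal hippocampus 1 to 4, and was 9.06-fold lower (-3.18 ± 0.34, larger limma adjusted p = 1.71e-05). Npas4, a neuron-specific activity factor, was at 6.28, 6.296 and 6.24 in tumors 1 to 3 against 7.84 to 9.54. The nuclear receptors Nr4a3 (-2.71) and Nr4a1 (-2.21) fell. Other immediate early genes of the list were not called: Fos differed by -0.25, Junb by -0.14, Egr2 by -0.093 and Egr1 by -0.95, the last passing against cortex only.

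Myelin genes were lower, 10 of 11, with a median of -1.94. Mog, a protein of the outer myelin surface, measured 7.25, 8.03 and 8.55 in tumors 1 to 3, 10.2, 10.5, 10.5 and 10.4 in normal cortex 1 to 4 and 10.6, 10.4, 10.04 and 10.2 in normal hippocampus 1 to 4 and was 5.38-fold lower (-2.43 ± 0.48, larger limma adjusted p = 0.00122). Opalin (-2.601), the galactolipid enzyme Ugt8a (-2.47), Ermn (-2.09) and the myelin basic protein Mbp (-1.95) fell, and Cldn11 (-1.28) was not called. Tumor 1 had the lowest myelin score, -2.65, against -1.71 in tumor 2 and -1.44 in tumor 3; a score is the mean over a list of differences from the 8 normal arrays. Without tumor 1 only 3 of the 11 passed. Mbp was not called without tumor 1 (adjusted p = 0.0585) and Ermn was not called without tumor 1 (adjusted p = 0.0962).

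Of 12 oligodendrocyte precursor genes 5 were lower (16.1% of all genes were) and 0 higher, with a median of -0.83. All tumors lay below all normal arrays in 10. Olig2, a transcription factor of the lineage, fell (6.95, 7.75 and 7.02 in tumors 1 to 3 against 8.58 to 8.94; -1.47), as did the proteoglycan Cspg5 (-2.13) and Gpr17 (-1.72). Pdgfra, the growth factor receptor that marks precursors, measured 11.3, 11.02 and 8.81 in tumors 1 to 3, 9.48, 9.27, 9.35 and 9.31 in normal cortex 1 to 4 and 9.57, 9.36, 9.38 and 9.34 in normal hippocampus 1 to 4. Tumors 1 and 2 were above all normal arrays and tumor 3 below them, and Pdgfra was not called (larger limma adjusted p = 0.149). Sox10 (-0.70), Cspg4 (-0.48) and Bcas1 (-1.28) were not called either. Without any 1 of the normal arrays the count of 5 was 3, without tumor 1 it was 1, without tumor 2 it was 2, and without tumor 3 it was 3 with 1 higher. Cspg5 was not called without tumor 1 or 2 (adjusted p = 0.0553 to 0.105) and Olig2 was not called without tumor 1 (adjusted p = 0.0592).

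Astrocyte genes gave no uniform answer. Of 16, 6 were lower (16.1% of all genes were) and 10 not called, with a median of -1.47. Slc1a2, the main glutamate transporter of mature astrocytes, measured 8.64, 10.1 and 11.3 in tumors 1 to 3, 12.9, 12.9, 12.8 and 12.7 in normal cortex 1 to 4 and 12.8, 12.4, 12.7 and 12.7 in normal hippocampus 1 to 4 and fell (-2.73 ± 0.65, larger limma adjusted p = 0.00644). The neurotensin receptor Ntsr2 (-3.06), the receptor Fgfr3 (-1.68) and the bicarbonate transporter Slc4a4 (-1.61) fell too. The gap junction gene Gja1 (0.025), Aldh1l1 (0.12) and the transcription factor Sox9 (0.55) lay within the normal range in part and were not called. The water channel Aqp4 was at 8.24, 9.23 and 9.88 in tumors 1 to 3 against 9.58 to 10.6 in normal brain, lowest in tumor 1, and was not called. The count of lower astrocyte genes was 2 without tumor 1, 3 without tumor 2 or without any 1 of normal cortex 1 to 3, and 10 without the 4 arrays that stand apart. Slc1a2 was not called without tumor 1 (adjusted p = 0.072) and Slc4a4 was not called without tumor 1 or 2 or normal cortex 1, 2 or 3 (adjusted p = 0.0508 to 0.152).

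Genes that astrocytes raise after injury stood opposite: 10 of 13 reactive glia genes were higher and 0 lower, with a median of 2.27. Besides Lcn2, the protease inhibitor A2m measured 11.3, 11.3 and 10.999 against 7.05 to 8.26 (3.79), the heat shock protein Hspb1 rose by 3.49 and the hyaluronan receptor Cd44 by 3.34. Their larger limma adjusted p lay between 1.4e-05 for Cd44 and 0.00169 for Hspb1. The filament gene Vim, which marks reactive and immature glia, measured 13.4, 13.6 and 13.4 in tumors 1 to 3, 10.9, 11.97, 10.8 and 11.8 in normal cortex 1 to 4 and 11.8, 11.4, 12.6 and 11.5 in normal hippocampus 1 to 4. Normal hippocampus 3 had the most Vim among normal arrays, below each tumor (1.89). Aspg (0.36), Steap4 (0.48) and S1pr3 (1.08) were not called.

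Stem cell genes split. Of 16 neural stem genes 5 were higher and 3 lower (12.1% and 16.1% of all genes were), with a median of 0.09. With Nes, the transcription factors Sox2 (10.9, 10.96 and 9.61 in tumors 1 to 3, 9.22, 9.35, 9.27 and 9.12 in normal cortex 1 to 4 and 9.52, 9.13, 9.49 and 9.29 in normal hippocampus 1 to 4; 1.202), Pax6 (1.38) and Id1 (1.47) and the Notch effector Hes1 (1.004) rose. The orphan receptor Nr2e1, which keeps SVZ stem cells dividing, fell (6.85, 7.28 and 7.48 against 8.67 to 9.25; -1.79), as did Rfx4 (-0.95) and Hes5 (-0.63). The radial glia lipid carrier Fabp7 (-0.31) and the surface marker Prom1 (0.17) were not called. Tumor 3 had the lowest Sox2 level, and the count of higher genes was 2 without tumor 1 and 3 without tumor 2. Sox2 was not called without tumor 1 or 2 or normal hippocampus 2 (adjusted p = 0.0595 to 0.139), Pax6 was not called without tumor 1 or 2 or normal hippocampus 4 (adjusted p = 0.0512 to 0.0742), Hes1 was not called without tumor 1 (adjusted p = 0.058) and Rfx4 was not called without tumor 1 or 2 (adjusted p = 0.0547 to 0.0636).

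Of the genes of SVZ progenitors and neuroblasts, 3 of 15 were higher and 7 lower (12.1% and 16.1% of all genes were). The growth factor receptor Egfr, which marks fast-dividing progenitors, measured 10.2, 10.6 and 10.2 in tumors 1 to 3, 8.55, 8.62, 8.44 and 8.397 in normal cortex 1 to 4 and 8.49, 8.41, 8.502 and 8.41 in normal hippocampus 1 to 4, and Egfr was 3.59-fold higher (1.84 ± 0.40, larger limma adjusted p = 0.00247). Cd24a, a neuroblast surface antigen also found on other cells, rose by 3.04 and the transcription factor Sox4 by 1.34. Dcx, the microtubule protein of migrating neuroblasts, measured 6.66, 6.75 and 7.18 in tumors 1 to 3, 9.06, 9.03, 9.05 and 8.61 in normal cortex 1 to 4 and 8.38, 8.24, 8.25 and 8.11 in normal hippocampus 1 to 4. Levels in normal cortex were above those in normal hippocampus, the tumors were below both, and Dcx fell (-1.73, larger adjusted p = 0.0229). Dlx1 (-1.89), which specifies interneurons, Elavl4 (-2.63) and Stmn1 (-1.74) also fell. Sox11 (9.12, 9.01 and 7.01 in tumors 1 to 3 against 7.97 to 8.503) was not called. Without tumor 2 the count of lower genes was 4. Dcx was not called without tumor 1 or 2 (adjusted p = 0.0728 to 0.0812).

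Markers of the ventricle wall and striatum were called in 1 gene, Isl1. None of 6 ependymal genes was called; Foxj1, which the ciliated cells of the ventricle wall need, was at 7.13, 6.95 and 7.02 in the tumors and 6.92 to 7.26 in normal brain, overlapping. Choroid plexus genes were called in 0 of 7. Ttr, its main secreted protein, measured 12.1, 13.1 and 7.83 in tumors 1 to 3, 7.86, 8.103, 9.24 and 9.12 in normal cortex 1 to 4 and 12.8, 12.6, 9.68 and 8.96 in normal hippocampus 1 to 4: tumors 1 and 2 and normal hippocampus 1 and 2 were high and the other 7 arrays lower. Of 13 striatal genes 0 were called lower, with a median of -1.197, though all tumors lay below all normal arrays in 10 and above them in none. The LIM factor Isl1 alone was called, and was higher (10.2, 8.998 and 6.54 in tumors 1 to 3 against 6.35 to 6.76; larger limma adjusted p = 0.00404), with tumor 3 inside the normal range. Isl1 was not called without tumor 1 (adjusted p = 0.0775). The striatal dopamine receptor Drd2 was at 10.6 and 9.87 in normal cortex 3 and 4, against 7.08, 7.33 and 7.79 in the tumors and 7.73 to 8.14 in the other 6 normal arrays. The striatal scores of tumors 1 to 3 were -1.03, -1.02 and -0.93, below every normal array. The striatal score was 1.17 and 0.80 in normal cortex 3 and 4 and -0.47 to -0.11 in the other normal arrays. Whether those 2 cortex samples held striatum was not tested.

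**Figure D3:**
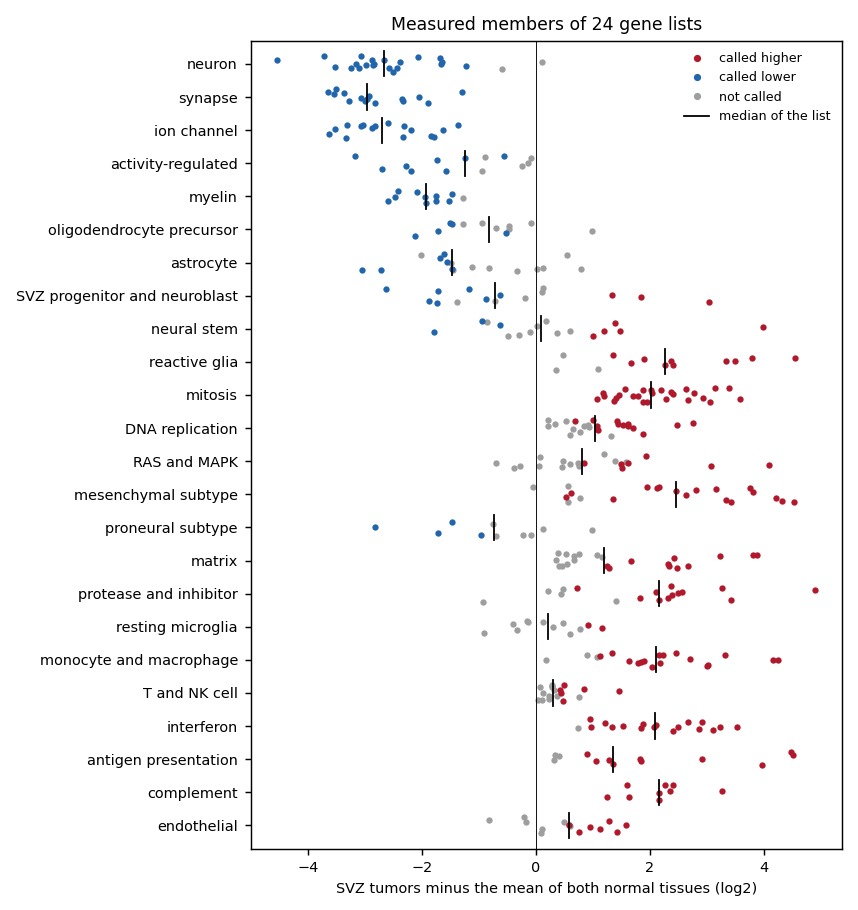
Each point is a measured member of 1 of 24 gene lists, placed at its log2 difference between SVZ tumors (3 arrays) and the mean of both normal tissues (4 arrays each); red members were called higher, blue lower, and grey were not called, and black bars are list medians. Every mitosis, complement and synapse gene measured was called in 1 direction, while neural stem and progenitor genes were called in both directions.

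All 26 mitosis genes measured were higher (12.1% of all genes were), with a median difference of 2.02 and all 3 tumors above all 8 normal arrays for each. Cdk1, the kinase that starts mitosis, measured 11.1, 10.8 and 10.2 in tumors 1 to 3, 6.47, 7.27, 6.76 and 7.204 in normal cortex 1 to 4 and 7.299, 7.22, 7.44 and 7.299 in normal hippocampus 1 to 4, and was 12-fold higher (3.58 ± 0.40, larger limma adjusted p = 9.17e-06). Bub1, a kinase of the spindle checkpoint, measured 9.66, 9.38 and 8.25 in tumors 1 to 3, 5.55, 5.96, 5.65 and 5.83 in normal cortex 1 to 4 and 5.69, 5.34, 5.74 and 5.94 in normal hippocampus 1 to 4 (10.5-fold, larger adjusted p = 0.000182). For both genes tumor 1 was the highest and tumor 3 the lowest of the tumors. The spindle midzone protein Prc1 rose by 3.14, the cyclin Ccna2 by 3.06 and the proliferation antigen Mki67 by 2.67. Tumor 1 was the highest tumor in all 26 genes, and the mitosis scores were 2.54, 2.18 and 1.73 in tumors 1 to 3 against -0.08 to 0.07 in normal arrays. DNA replication genes were higher in 13 of 24, with a median of 1.04: E2f8 (2.76), Rrm2 (2.47), Tyms (1.87) and Mcm2 (1.696) led, and Pcna (0.91) and Ccne1 (0.21) were not called. That count was 20 without the 4 arrays that stand apart and with quantile normalization, 21 with each array centred on its median.

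Because the mitosis genes moved together, the promoters of the 2 with the largest nearer difference are shown, from RefSeq on build GRCm38.p6, 5' to 3' on the gene's strand, from 250 bases before the start to 50 after it. Capitals mark TTTGAA, the core of the cell cycle homology region, and CCAAT, the box bound by NF-Y, searched on both strands (a match to CCAAT on the other strand reads ATTGG).
Cdk1 (chr10:69352863-69353162, minus strand): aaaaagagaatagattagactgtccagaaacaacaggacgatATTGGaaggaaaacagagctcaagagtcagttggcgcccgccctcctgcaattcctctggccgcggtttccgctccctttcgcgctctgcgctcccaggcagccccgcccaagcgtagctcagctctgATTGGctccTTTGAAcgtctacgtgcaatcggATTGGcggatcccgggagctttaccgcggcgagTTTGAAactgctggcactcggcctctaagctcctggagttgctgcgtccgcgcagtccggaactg
Bub1 (chr2:127831810-127832109, minus strand): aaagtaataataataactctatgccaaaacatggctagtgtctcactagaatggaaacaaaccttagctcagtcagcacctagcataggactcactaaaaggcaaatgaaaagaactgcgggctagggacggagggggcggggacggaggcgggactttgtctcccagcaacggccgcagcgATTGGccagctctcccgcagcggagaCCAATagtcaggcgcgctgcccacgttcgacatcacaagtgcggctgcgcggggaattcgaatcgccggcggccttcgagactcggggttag
The Cdk1 window held 5 matches, of both motifs, and the Bub1 window 2 matches of CCAAT and none of TTTGAA. The TTTGAA core was in the windows of 15 of 22 mitosis genes with a promoter in the table (68.2%), against 20.2% of 27025 genes. CCAAT was in 17 of 22 (77.3%), against 41.1%. The 22 are list members with a promoter, called or not. Among the 21 called higher, 15 held TTTGAA (71.4%) and 16 CCAAT (76.2%). A match is a description of these letters only.

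Of 15 genes of G1 control 8 were higher and 1 lower (12.1% and 16.1% of all genes were). The transcription factor Myc measured 10.6, 10.4 and 9.99 in tumors 1 to 3, 7.62, 7.86, 7.58 and 7.83 in normal cortex 1 to 4 and 7.97, 7.84, 8.25 and 7.94 in normal hippocampus 1 to 4 and was 5.66-fold higher (2.500 ± 0.45, larger limma adjusted p = 0.000858). The cyclin Ccnd1 (2.03) and its kinases Cdk4 (1.37) and Cdk6 (2.07) rose, Cdk6 most in tumor 3 (9.102, 9.27 and 10.7). Genes that encode inhibitors of those kinases rose with them: Cdkn2a measured 9.52, 9.17 and 9.51 in tumors 1 to 3, 7.36, 6.99, 7.28 and 7.35 in normal cortex 1 to 4 and 7.19, 7.44, 7.402 and 7.24 in normal hippocampus 1 to 4 (2.12, larger adjusted p = 0.000139) and Cdkn2b rose by 1.99. A single value per gene does not tell its transcripts apart. Mycn fell (-0.88). The retinoblastoma gene Rb1 (9.14, 9.302 and 9.14 in the tumors against 9.45 to 9.94) and the cyclin Ccnd2 (0.90) were not called.

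Targets of p53 were higher in 6 of 16 (12.1% of all genes were) and lower in 2, a share near the 16.1% of all genes. The death receptor Tnfrsf10b measured 9.53, 9.79 and 10.2 in tumors 1 to 3, 6.77, 6.94, 6.796 and 6.73 in normal cortex 1 to 4 and 6.83, 6.79, 6.93 and 6.87 in normal hippocampus 1 to 4, 8.11-fold higher (3.02 ± 0.48, larger limma adjusted p = 0.000182). The receptor Eda2r (2.26), Phlda3 (1.55) and the p53 inhibitor Mdm2 (1.12) rose. Sesn1 (-1.01) and Zmat3 (-0.75) fell. Sesn1 was not called without tumor 1 or 2 (adjusted p = 0.0677 to 0.122) and Zmat3 was not called without tumor 1 or normal hippocampus 4 (adjusted p = 0.057 to 0.0801). With each array centred on its median Zmat3 was not called (adjusted p = 0.0724). Bbc3 (-0.017), Fas (0.48) and Ccng1 (0.61) were not called. Neither Trp53 nor Hras was analysed here.

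In the RAS and MAPK list 7 of 20 genes were higher and 0 lower (12.1% and 16.1% of all genes were). Emp1 measured 11.6, 11.5 and 12.1 in tumors 1 to 3, 6.905, 7.83, 6.97 and 8.03 in normal cortex 1 to 4 and 7.85, 7.11, 9.08 and 7.44 in normal hippocampus 1 to 4 and was 17.1-fold higher (4.096 ± 0.53, larger limma adjusted p = 3.47e-05). Fosl1, a transcription factor that ERK signalling induces and stabilises, measured 10.7, 10.99 and 10.8 in the tumors against 7.18 to 8.31 (3.07). The early response gene Ier3 (1.93) and the phosphatase Dusp5 (1.62) rose, as did Nras itself (0.85). The feedback genes Dusp6 (11.5, 11.1 and 10.5 against 10.01 to 10.7) and Spry2 (0.48) were not called. Nf1, which switches RAS off, measured 10.6, 10.4 and 10.3 in tumors 1 to 3, 10.9, 10.8, 10.96 and 10.8 in normal cortex 1 to 4 and 10.9, 10.7, 10.9 and 10.8 in normal hippocampus 1 to 4. Its tumor levels lay just below the normal range, and the difference did not pass (-0.40 ± 0.24, larger adjusted p = 0.376). Dusp5 was not called without tumor 2 or 3 or normal hippocampus 2 or 4 (adjusted p = 0.0511 to 0.0959). With the replicate number as a block 11 of the 20 were higher.

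Receptors and ligands of growth factor pathways moved both ways (over all genes 12.1% were higher and 16.1% lower). Of 15 receptor tyrosine kinases 5 were higher, namely the collagen receptor Ddr2 (11.5, 11.1 and 10.4 against 7.43 to 8.101; 3.33), Axl (2.59), Met (1.94), Egfr and Erbb2 (0.78). Lower were Kit (-1.76), Fgfr3, Fgfr2 (-1.35) and Erbb3 (-0.97). Pdgfrb (0.60) and Igf1r (-0.26) were not called. Among 13 growth factors Hbegf, an EGFR ligand, measured 11.5, 11.3 and 11.2 in tumors 1 to 3, 8.61, 8.61, 8.54 and 8.71 in normal cortex 1 to 4 and 8.56, 8.33, 8.84 and 8.45 in normal hippocampus 1 to 4 and rose 6.72-fold (2.75 ± 0.32, larger limma adjusted p = 6.36e-06). Tgfb1 rose most in tumor 3 (10.1, 10.5 and 11.4; 2.47) and Fgf2 by 1.13, while Bdnf fell (-0.56). In the Notch pathway the receptors Notch2 (2.56), Notch4 (2.16) and Notch1 (1.28) rose with Hes1 and the ligand Dll4 (0.77), the ligand Jag2 (-0.91) and Hes5 fell, and Jag1 (10.2, 11.7 and 8.51 in tumors 1 to 3) was not called. Without tumor 1 the count of higher Notch genes was 3. Erbb2 was not called without tumor 3 (adjusted p = 0.0568), Fgf2 was not called without tumor 1 or 2 or normal hippocampus 4 (adjusted p = 0.0639 to 0.0984), Dll4 was not called without tumor 1 or 2 or normal cortex 3 (adjusted p = 0.0522 to 0.112) and Hes1 was not called without tumor 1 (adjusted p = 0.058). With each array centred on its median Bdnf was not called (adjusted p = 0.103).

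Of 22 matrix genes 11 were higher and 0 lower, with a median of 1.199. Thbs1, a matrix glycoprotein that activates TGF-beta, measured 12.01, 12.9 and 11.04 in tumors 1 to 3, 7.51, 7.998, 7.11 and 7.99 in normal cortex 1 to 4 and 8.73, 8.03, 9.74 and 8.196 in normal hippocampus 1 to 4 (14.1-fold, 3.82 ± 0.63, larger limma adjusted p = 0.000761). Tnc, a glycoprotein of germinal zones and gliomas, measured 12.4, 12.7 and 9.23 in tumors 1 to 3, 7.63, 8.51, 7.12 and 9.05 in normal cortex 1 to 4 and 8.69, 7.77, 8.43 and 8.41 in normal hippocampus 1 to 4. Tumors 1 and 2 were far above every normal array, tumor 3 just above the highest, normal cortex 4, and Tnc was called (3.23, larger adjusted p = 0.00136). The galectin Lgals3 (3.89) and fibronectin, Fn1 (2.34), rose. The collagens were not called: Col1a1 measured 8.49, 8.499 and 8.09 in the tumors against 7.86 to 8.18, and Col4a1 of basement membranes differed by 0.55. The crosslinking enzyme Lox was not called (1.15).

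Of 17 proteases and their inhibitors 12 were higher and 0 lower, with a median of 2.16. With Timp1 rose the urokinase receptor Plaur (10.1, 10.4 and 11.3 against 6.87 to 8.29; 3.42), urokinase, Plau (3.26), and the membrane protease Mmp14 (2.56). The larger limma adjusted p of these genes was 0.000103, 0.000792 and 0.000183. Mmp2 differed among the tumors (11.1, 11.2 and 8.42), tumor 3 being near normal levels, and the gelatinase Mmp9, which was not called, was highest in tumor 3 (7.55, 7.42 and 10.7). Mmp2 was not called without tumor 1 or 2 (adjusted p = 0.0837 to 0.0905). Timp4 (-0.93) and Timp3 (0.46) were not called.

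Genes that define subtypes of glioblastoma were counted by subtype (over all genes 12.1% were higher and 16.1% lower). Of 21 mesenchymal genes 17 were higher and 0 lower, with a median of 2.45. Anxa2, an annexin, measured 12.1, 12.1 and 12.1 in tumors 1 to 3, 7.42, 7.99, 7.17 and 7.8000 in normal cortex 1 to 4 and 7.82, 7.59, 9.91 and 7.51 in normal hippocampus 1 to 4. The tumors were alike, the highest normal array was normal hippocampus 3, and Anxa2 was 18.6-fold higher (4.22 ± 0.52, larger limma adjusted p = 2.4e-05). Tgfbi (3.76) and Cd44 rose, as did Runx1 (3.17) and Stat3 (1.35), transcription factors named as regulators of that subtype. Cebpb, another such factor, was not called (0.56, larger adjusted p = 0.0647). Of 10 proneural genes 4 were lower and 0 higher, with a median of -0.73: the brevican Bcan (6.67, 7.25 and 8.45 against 10.1 to 10.5; -2.83), Dcx, Olig2 and Erbb3. Pdgfra and Sox11 of the proneural list were not called. Both were above all normal arrays in tumors 1 and 2 and below them in tumor 3. Of 10 classical genes Nes, Egfr and Smo (1.03) were higher and Fgfr3 was lower. The subtype lists share members with the stem, precursor and reactive glia lists, and no test compared one subtype list with another. Without tumor 1 the proneural count of lower genes was 2. Without tumor 3 that count was 4 with 1 proneural gene higher, and the classical count of higher genes was 5.

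Macrophage genes rose. Of 20 monocyte and macrophage genes 17 were higher and 0 lower, with a median of 2.10. Lyz2 measured 12.5, 12.5 and 12.03 in tumors 1 to 3, 7.798, 8.53, 7.43 and 8.77 in normal cortex 1 to 4 and 8.399, 7.67, 7.89 and 8.48 in normal hippocampus 1 to 4 and was 19.03-fold higher (4.25 ± 0.40, larger limma adjusted p = 5.71e-07). Ms4a6c, of monocytes and macrophages, measured 10.8, 10.7 and 10.3 against 5.53 to 7.28 (4.16). The scavenger receptor Msr1 rose by 3.32 and Ms4a7, of macrophages that entered the brain, by 3.01. Cd163 (0.18), Itga4 (0.90) and Plac8 (1.06) were not called. The monocyte chemokine receptor Ccr2 was at 7.69, 6.56 and 5.63 in tumors 1 to 3 against 5.298 to 5.69, with tumor 3 in the normal range. Ccr2 was not called without tumor 1 or 2, normal cortex 2 or 4 or normal hippocampus 1, 2 or 4 (adjusted p = 0.0504 to 0.332).

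Of 12 resting microglia genes 2 were higher, a share near the 12.1% of all genes, and 0 lower, with a median of 0.21. P2ry12, a purine receptor of resting microglia, measured 8.25, 8.67 and 8.36 in tumors 1 to 3, 8.601, 8.53, 8.42 and 8.73 in normal cortex 1 to 4 and 8.87, 8.46, 8.58 and 8.57 in normal hippocampus 1 to 4, and the groups overlapped (-0.17 ± 0.40, larger limma adjusted p = 0.869). Tmem119 (0.30) and the chemokine receptor Cx3cr1 (-0.15) were not called, and both were lowest in tumor 3. Called were Trem2 (1.17) and Aif1 (0.92). Trem2 was not called without tumor 2 (adjusted p = 0.119) and Aif1 was not called without tumor 1 or 2, normal cortex 2 or 4 or normal hippocampus 1, 2 or 4 (adjusted p = 0.0502 to 0.103). Genes of microglia that engulf debris were higher in 11 of 15: Gpnmb measured 11.5, 12.2 and 10.96 in tumors 1 to 3, 6.86, 7.74, 6.93 and 7.67 in normal cortex 1 to 4 and 7.95, 7.45, 7.93 and 7.58 in normal hippocampus 1 to 4 (16.4-fold, larger adjusted p = 3.29e-06), with Ccl3 (3.303) and Clec7a (2.69). The lipid carrier Apoe (0.16) and Lpl (-0.84) were not called. All 9 complement genes were higher, with a median of 2.17, among them the receptor C3ar1 (3.27) and C1qa (2.26), which starts the classical pathway. Of 9 neutrophil and B cell genes 0 were called.

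Chemokines that draw monocytes rose. Ccl2 measured 11.9, 10.7 and 10.9 in tumors 1 to 3, 6.76, 7.15, 6.72 and 7.56 in normal cortex 1 to 4 and 7.22, 7.11, 7.29 and 6.95 in normal hippocampus 1 to 4, and was 16.8-fold higher (4.07 ± 0.63, larger limma adjusted p = 0.000132). Ccl7 rose by 3.67, most in tumor 1 (11.5, 10.7 and 9.49), and the cytokine Il6 by 2.04. In all 10 of 17 chemokine and cytokine genes were higher (12.1% of all genes were) and 2 lower, a share near the 16.1% of all genes. Lower were Cx3cl1, the neuronal ligand of the microglial receptor Cx3cr1 (8.92, 8.596 and 9.81 in tumors 1 to 3, 12.4, 12.3, 12.3 and 12.3 in normal cortex 1 to 4 and 11.9, 11.6, 11.9 and 11.8 in normal hippocampus 1 to 4; -2.95, larger adjusted p = 1.85e-05), and Cxcl12 (-1.06). Il10 (0.23) and Il1b (1.49) were not called.

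Interferon-inducible genes were higher in 17 of 18, with a median of 2.08. Cxcl10, a chemokine that draws T cells, measured 10.5, 11.2 and 10.2 in tumors 1 to 3, 6.89, 6.6998, 6.63 and 7.02 in normal cortex 1 to 4 and 7.91, 7.34, 6.91 and 7.22 in normal hippocampus 1 to 4 and was 11.6-fold higher (3.53 ± 0.66, larger limma adjusted p = 0.00128). Cxcl9, its relative induced by interferon gamma, measured 11.1, 9.63 and 9.18 in tumors 1 to 3, 6.75, 6.67, 6.61 and 6.77 in normal cortex 1 to 4 and 6.901, 6.88, 6.51 and 6.84 in normal hippocampus 1 to 4 (9.44-fold, 3.24 ± 0.48, larger adjusted p = 8.63e-05). The tumors did not overlap normal brain for either gene, and tumor 1 had the most Cxcl9. The antiviral Ifit3 (10.6, 10.6 and 11.02 against 6.98 to 8.399; 3.11) and the protease Usp18 (2.91) followed, with the regulator Irf7 at 2.49. Only Stat2, a subunit of the factor that interferon signals activate, was not called (8.58, 8.86 and 8.83 in the tumors, 7.88 to 8.11 in normal brain; larger adjusted p = 0.136). The interferon scores of tumors 1 to 3 were 1.94, 2.19 and 2.17.

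The promoters of Cxcl10 and Cxcl9, the leading called genes of this list, are shown as for the mitosis genes, with capitals for GAAA, any 2 bases and GAAA again, the core of the interferon-stimulated response element, on either strand.
Cxcl10 (chr5:92348840-92349139, minus strand): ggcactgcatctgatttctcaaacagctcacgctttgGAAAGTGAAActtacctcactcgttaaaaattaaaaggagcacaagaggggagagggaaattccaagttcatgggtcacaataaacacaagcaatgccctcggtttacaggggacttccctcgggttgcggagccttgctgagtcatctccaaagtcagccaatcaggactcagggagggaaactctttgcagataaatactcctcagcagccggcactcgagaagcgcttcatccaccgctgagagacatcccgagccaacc
Cxcl9 (chr5:92328030-92328329, minus strand): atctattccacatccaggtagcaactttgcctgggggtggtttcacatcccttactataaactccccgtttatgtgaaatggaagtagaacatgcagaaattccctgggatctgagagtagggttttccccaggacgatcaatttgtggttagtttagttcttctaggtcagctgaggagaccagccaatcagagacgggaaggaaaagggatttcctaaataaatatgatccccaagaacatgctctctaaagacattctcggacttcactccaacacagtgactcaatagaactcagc
The Cxcl10 window held 1 match and the Cxcl9 window none, so these letters are absent from the latter. The motif was in the windows of 11 of 18 interferon genes with a promoter in the table (61.1%), against 3.99% of 27025 genes. These 18 are list members with a promoter, not the 18 measured genes counted above. Of the genes called higher 13 had a promoter, and 7 of them held the motif (53.8%).

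Antigen presentation genes were higher in 10 of 13. Those of MHC class II rose most: H2-Ab1 measured 11.7, 10.5 and 10.02 in tumors 1 to 3, 6.86, 6.85, 6.37 and 7.004 in normal cortex 1 to 4 and 6.81, 7.05, 6.501 and 6.59 in normal hippocampus 1 to 4 (15.7-fold, 3.97 ± 0.38, larger limma adjusted p = 5.93e-07) and H2-Eb1 11.4, 9.91 and 9.17 in tumors 1 to 3 against 6.85 to 7.501 (2.91). With H2-Aa and Cd74, all 4 were highest in tumor 1 and lowest in tumor 3. The class I light chain B2m, bright in normal brain, rose by 1.35. Ciita, the regulator of class II genes, was at 7.31, 6.77 and 6.68 against 6.52 to 6.81 and was not called (0.31, larger adjusted p = 0.137). The antigen presentation score was 2.38, 1.66 and 1.77 in tumors 1 to 3.

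Of 18 T and NK cell genes 6 were higher and 0 lower (12.1% and 16.1% of all genes were), with a median of 0.30. Nkg7, of cytotoxic granules, measured 8.396, 7.32 and 7.14 in tumors 1 to 3, 6.23, 6.05, 6.11 and 6.19 in normal cortex 1 to 4 and 5.94, 6.099, 6.31 and 6.29 in normal hippocampus 1 to 4 (2.76-fold, 1.46 ± 0.25, larger limma adjusted p = 0.000301). Cd3g, a chain of the T cell receptor complex, was at 7.74, 6.19 and 5.99 against 5.65 to 5.95, so that most of its rise (0.85) lay in tumor 1. Cd3e rose by 0.47. Cd4 (0.28), Cd8a (0.12), Gzma (0.033) and Foxp3 (0.061) were not called. Without tumor 1 the count of higher genes was 2. Cd3g was not called without tumor 1 (adjusted p = 0.261) and Cd3e was not called without tumor 1 or normal hippocampus 3 (adjusted p = 0.0521 to 0.181).

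**Figure D4:**
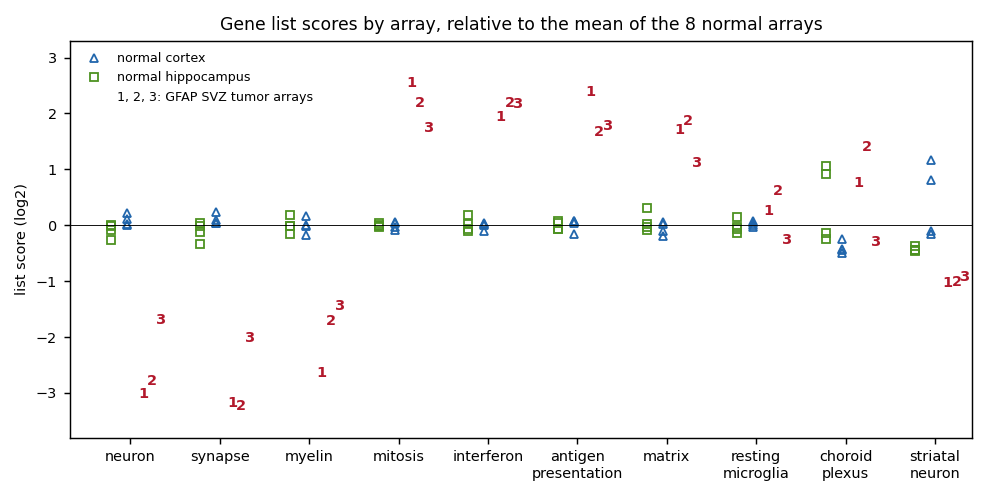
Score of 10 gene lists on each of 11 arrays, the mean over the list of log2 differences from the 8 normal arrays; red digits are SVZ tumors 1 to 3, blue triangles the 4 normal cortex arrays and green squares the 4 normal hippocampus arrays. Tumor 3 has the highest neuron score (-1.69) and the lowest mitosis score (1.73) of the tumors, tumors 1 and 2 share high choroid plexus scores with 2 hippocampus arrays, and normal cortex 3 and 4 have the highest striatal scores (1.17 and 0.80).

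Genes of low oxygen were higher in 8 of 19 and lower in 1. Hmox1, heme oxygenase, which also responds to oxidative stress, measured 11.05, 11.9 and 12.03 in tumors 1 to 3, 7.85, 8.11, 7.74 and 8.06 in normal cortex 1 to 4 and 7.94, 7.67, 8.71 and 7.76 in normal hippocampus 1 to 4 (12.8-fold, 3.68 ± 0.46, larger limma adjusted p = 1.76e-05). The peptide Adm (2.92), the lactate exporter Slc16a3 (2.36) and the glycolytic kinase Hk2 (1.81) rose. Vegfa, the vessel growth factor, measured 10.96, 11.2 and 10.03 against 9.19 to 9.96 and passed against hippocampus only (1.04). The glycolytic Aldoa fell (-0.53), though not with each array centred on its median (adjusted p = 0.0574), and Ldha (0.59) and Pgk1 (0.59) were not called.

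Vessel genes rose in part. Of 15 endothelial genes 7 were higher and 0 lower, with a median of 0.58: Emcn (1.58), Esam (1.42) and Vwf (8.24, 8.67 and 8.58 against 7.27 to 7.46; 1.12) led. The blood-brain barrier transporters Mfsd2a (0.082) and Slco1a4 (-0.83) were not called. Without tumor 2, which had the highest endothelial score (0.88, against 0.53 and 0.27), the count was 2. Of 9 genes of growing vessels 5 were higher. Nid1, nidogen of basement membranes, measured 11.1, 11.1 and 11.9 in tumors 1 to 3, 7.3999, 7.39, 7.19 and 7.43 in normal cortex 1 to 4 and 7.48, 7.31, 8.399 and 7.31 in normal hippocampus 1 to 4 (14.9-fold, 3.897 ± 0.55, larger limma adjusted p = 7.56e-05). Angpt2, which loosens vessels, rose by 1.89, and Esm1 was high in tumors 1 and 2 alone (8.92, 9.25 and 6.204 against 6.001 to 6.47). The count of 5 was 3 without tumor 1 or without tumor 2. Emcn was not called without tumor 2 (adjusted p = 0.118), Esam was not called without tumor 2 or 3 (adjusted p = 0.052 to 0.066) and Esm1 was not called without tumor 1 or 2 (adjusted p = 0.102 to 0.141). Of 17 mural cell and fibroblast genes the actin Acta2 (2.31) and the peptidase Anpep (1.99) were higher and none lower, a share near the 12.1% of all genes; the pericyte receptor Pdgfrb was at 9.98, 9.97 and 8.52 against 8.72 to 9.03. That count was 4 without tumor 3, and 1 without tumor 2, normal cortex 3 or normal cortex 4. Anpep was not called without tumor 2 or normal cortex 3 or 4 (adjusted p = 0.051 to 0.157).

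Reference genes were checked for a general shift. Actb (-0.16), Hprt (-0.098), Ppia (-0.10) and Tbp (0.15) were not called, while Gusb, a lysosomal enzyme, rose by 1.74, as did the ribosomal Rplp0 (0.99). Sdha, of mitochondria, fell (-0.78). Sdha was not called without tumor 1 or 2, normal cortex 1 or normal hippocampus 1, 2, 3 or 4 (adjusted p = 0.0505 to 0.145). With each array centred on its median it was not called either (adjusted p = 0.0512). The median difference over all genes was -0.0027, and 0.07 with each array centred on its median.

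Genes of 1 normal region show what counting on both tissues set aside. Of 13 hippocampus region genes 2 were lower, a share near the 16.1% of all genes: the protocadherin Pcdh20 (-3.14) and the kainate receptor Grik4 (-1.75). Prox1 measured 7.22, 7.32 and 7.18 in tumors 1 to 3, 7.86, 7.99, 7.89 and 7.798 in normal cortex 1 to 4 and 10.2, 9.84, 9.92 and 9.903 in normal hippocampus 1 to 4; it was -2.73 against hippocampus (limma adjusted p = 2.89e-06) and -0.64 against cortex (adjusted p = 0.145), so it was not counted. Of 10 cortex region genes 7 were lower against both tissues. Tbr1 measured 6.52, 6.66 and 7.63 in the tumors, below both normal regions (-3.84 against cortex and -2.62 against hippocampus). Lamp5 (-3.79), the layer 5 factor Fezf2 (-2.66) and Vxn fell as well, and Rorb (-0.10) was not called. Tanc1, a postsynaptic scaffold, was the 1 gene called in opposite directions: it measured 8.87, 8.73 and 9.02 in tumors 1 to 3, 7.81, 8.14, 7.96 and 7.95 in normal cortex 1 to 4 and 9.83, 9.29, 9.702 and 9.55 in normal hippocampus 1 to 4, 0.91 against cortex and -0.72 against hippocampus. Normal hippocampus exceeded normal cortex in Tanc1 by 1.63, with the tumors in between.

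Tumor 3 was nearer to normal brain than tumors 1 and 2 in most lower genes. In 2279 of the 3215 called lower genes (70.9%) it was the highest of the 3 tumors, against 44.1% of all genes. Its neuron score was -1.69, against -3.02 and -2.78. It was below all normal arrays for Pdgfra and Sox11, and at normal levels for Isl1 and Esm1, where tumors 1 and 2 were higher. Of 20 monocyte and macrophage genes it was the lowest tumor in 11 and the highest in 7, and its score was the lowest (1.97, against 2.33 and 2.19). Among the 7 was Arg1 (8.08, 8.305 and 9.78). It was also the highest tumor for the metalloproteinase Mmp12 (8.13, 8.9003 and 10.6), Cdk6 and Tgfb1. Arg1 was not called without tumor 3 (adjusted p = 0.0583) and Mmp12 was not called without tumor 3 (adjusted p = 0.108). With 3 tumors these differences carry no test. Without tumor 3 the count of called genes was 5268, of which 4810 were among the 5626.

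Set against GFAP tumors of other regions, the SVZ tumors differed in few genes. Against 4 GFAP cortex tumors 1 gene passed (0.00502%), and against 7 GFAP hippocampus tumors 63 genes passed (0.316%), 30 higher and 33 lower (limma). These counts hang on single arrays. Without the 4 arrays that stand apart 2361 and 134 genes passed, and without GFAP cortex tumor 1 alone 539 differed from GFAP cortex tumors. Against GFAP hippocampus tumors 4 genes passed without SVZ tumor 1, 3 without SVZ tumor 2 and 106 without SVZ tumor 3. Fitted on the arrays of each pair of groups alone, limma called 0 genes against either group (1364 and 1420 genes at an unadjusted p under 0.05).

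Immune genes of the lists above were among the 30 that were higher than in GFAP hippocampus tumors. The 5 given here were picked from those that passed, and immune genes that did not pass are not counted. Scores of the monocyte and macrophage list overlapped, 1.972 to 2.325 in SVZ tumors and 2.084 to 2.345 in GFAP hippocampus tumors 1 to 4. Those of the resting microglia list overlapped too, -0.2723 to 0.6069 in SVZ tumors and -0.2672 to 1.118 in all GFAP hippocampus tumors. Scores of the other immune lists are not compared here. Cxcl9 was higher by 2.59 (limma adjusted p = 0.0206). In Cxcl9 the SVZ tumors were above every other array of the series but NES hippocampus tumor 1 (9.52), which lay between SVZ tumors 2 and 3. H2-Aa was higher by 2.01 (adjusted p = 0.0496), Nkg7 by 1.44 (adjusted p = 0.0206), the complement gene C2 by 1.37 (adjusted p = 0.043) and Cd3e by 0.65 (adjusted p = 0.0239). Without SVZ tumor 1, the array with the most signal for these genes, none of the 5 passed (adjusted p = 0.182 for Cxcl9 and Nkg7, 0.291 for H2-Aa and C2 and 0.214 for Cd3e). Without SVZ tumor 2 Cd3e alone passed (adjusted p = 0.0468, against 0.0678 for Cxcl9, 0.148 for H2-Aa, 0.0513 for Nkg7 and 0.182 for C2). Without the 4 arrays that stand apart Cxcl9 (0.0541), H2-Aa (0.113) and C2 (0.0922) were not called either. Cdk1 (0.53), Syn1 (-0.33) and Fn1 (0.072) did not pass against GFAP hippocampus tumors (limma adjusted p = 0.551, 0.807 and 0.952). They are single genes of the mitosis, neuron and matrix lists and do not stand for those lists.

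The remaining genes were also chosen after their values were seen. Lipg, an endothelial lipase, measured 7.71, 7.89 and 7.82 in SVZ tumors 1 to 3, the 3 highest arrays of the series. Normal cortex was at 7.08 to 7.57, above the GFAP cortex tumors (6.37 to 6.87), and normal hippocampus at 6.44 to 6.79. Lipg was called against both normal tissues, but not without SVZ tumor 2 or 3 or normal cortex 1 or 4 (limma adjusted p = 0.0518 to 0.0786). It was the 1 gene called against GFAP cortex tumors (1.17, limma adjusted p = 0.00157) and was called against GFAP hippocampus tumors (1.04, adjusted p = 0.00193), also without any 1 of the SVZ tumors (adjusted p = 0.00276 to 0.0347 over both comparisons). The homeobox genes Irx1 (1.66, limma adjusted p = 0.0206) and Lhx6 (1.42, adjusted p = 0.0215) were higher than in GFAP hippocampus tumors. Lhx6 is a factor of migrating interneurons. Lhx8, a homeobox factor of ventral forebrain neurons, was lower than in those tumors (-2.37, limma adjusted p = 0.0384). Lhx8 measured 6.56, 6.69 and 6.93 in SVZ tumors 1 to 3, near the 6.72 to 7.07 of normal brain. The GFAP hippocampus tumors, at 7.503 to 10.99, lay above normal brain. Without SVZ tumor 1 or without SVZ tumor 2 none of these homeobox genes passed (adjusted p = 0.182 and 0.112 for Irx1, 0.102 and 0.0513 for Lhx6, 0.182 and 0.169 for Lhx8). Without SVZ tumor 3 Irx1 alone passed (0.00496, against 0.113 for Lhx6 and 0.0533 for Lhx8).

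**Figure D5:**
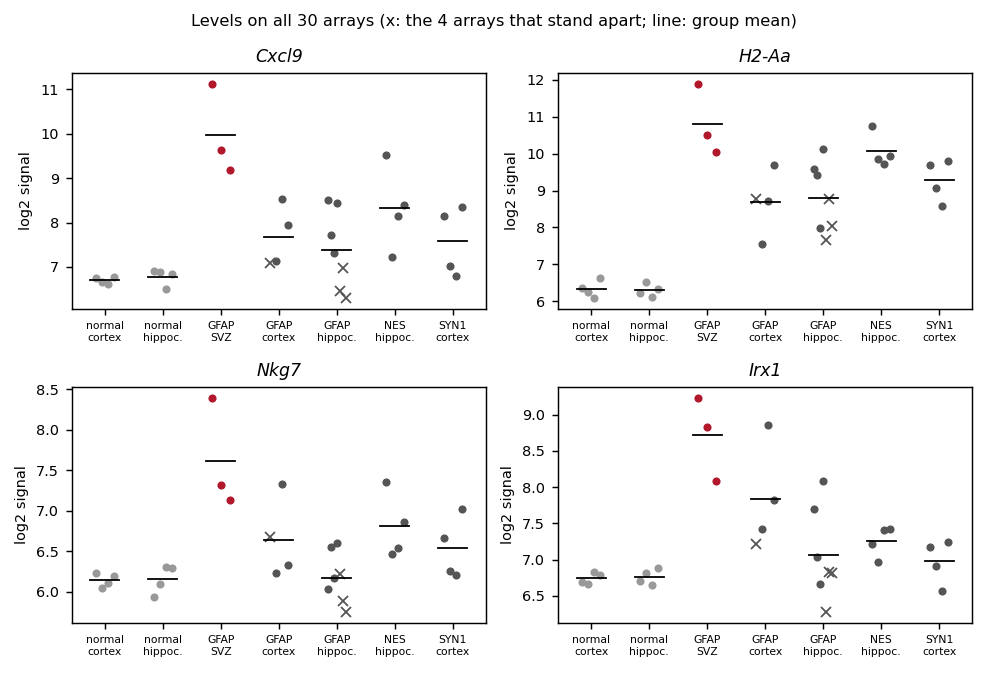
Log2 signal of 4 genes on all 30 arrays by group, with the SVZ tumors in red, other tumors in dark grey, normal tissues in light grey, crosses for the 4 arrays that stand apart and lines for group means over all arrays of the group. SVZ tumor 1 has the highest level of all arrays for each gene, and arrays of other tumor groups overlap the SVZ tumors in all 4.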

How the data were processed

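RNA of 30 samples was hybridised to Affymetrix Mouse Gene 1.0 ST arrays. The deposited values are log2 signal, made by the authors with tools that their processing notes list without version: Affymetrix Power Tools, MAS5 and RMA. Genome build and replicate origin are not given in the sources used here. Of 35556 probe sets 21789 name 1 gene, 1621 several and 12146 none, through the platform's annotation; 21698 matched RefSeq. For the 999 genes with several probe sets the one with the highest mean was kept, leaving 19938 genes. Groups were taken from the descriptions of the samples. One model with 7 group means was fitted with limma 3.58.1 (R 4.3.3; lmFit, eBayes) to all 30 arrays, with no further normalization or filter. Each SVZ contrast was adjusted by Benjamini-Hochberg over all genes. A gene was called where both adjusted p-values were under 0.05 with the same sign; the larger p is given. Errors are standard errors of the fit, and differences are from the mean of both normal tissue means unless stated. The number of arrays limits the precision. The fit was tested on simulated data.

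The genes, 43 gene lists and tests were chosen with earlier results of these data known. The text names the 15 genes with the largest nearer difference in each direction, where all tumors lay outside the normal range. It also names up to 4 called genes per list and direction, up to 4 not called, defining markers, and the suppressor, RAS and promoter genes; further members were added after their values were seen. Whether replicate numbers pair samples is not stated, and the main fit did not pair them. Residual correlations over 10 same-numbered pairs ran from -0.0984 to 0.237. The 1 over 0.1 was normal cortex 1 with normal hippocampus 1. Alternatives changed the scaling, the filter, the probe set rule, the fit, the arrays and the threshold. Some genes are not reported here.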

Additional observations from a re-analysis of the deposited data

Results flagged for a closer look

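In 40 of 528 normal groups tested (4 arrays each, for 264 named genes), 1 normal array lay apart from the other 3. The measure was the gap to the nearest array as a share of the range of the 4 arrays. That share was 0.83 or more in each flagged group, and the gap itself can be small in signal. Chance gives such a flag in about 1 in 20 groups. The SVZ tumors, with 3 arrays, were not tested in this way. Normal hippocampus 1 stood apart as the highest array for Cx3cr1 (9.654, the others 9.131 to 9.191), Olig2 (8.944, the others 8.644 to 8.693), Pdgfra (9.574, the others 9.343 to 9.381) and Rorb (9.335, the others 9.014 to 9.063). Normal hippocampus 1 stood apart as the lowest array for Erbb2 (6.909, the others 7.276 to 7.341). Normal hippocampus 2 stood apart as the highest array for Fos (8.176, the others 7.716 to 7.749). Normal hippocampus 2 stood apart as the lowest array for Gria2 (10.94, the others 11.48 to 11.58), Sox11 (8.171, the others 8.478 to 8.503) and Tbr1 (9.44, the others 9.587 to 9.609). Normal hippocampus 3 stood apart as the highest array for Anxa1 (7.766, the others 6.114 to 6.374), Anxa2 (9.907, the others 7.515 to 7.824), Cd44 (7.612, the others 6.412 to 6.457), Id1 (7.887, the others 7.823 to 7.83), Ier3 (8.067, the others 6.562 to 6.818), Ifi205 (6.558, the others 5.936 to 6.026), Jag1 (9.436, the others 7.809 to 7.909), Lgals3 (9.185, the others 7.188 to 7.496), Msr1 (6.94, the others 6.374 to 6.453) and Nid1 (8.399, the others 7.305 to 7.478). Normal hippocampus 3 stood apart as the lowest array for Cxcl9 (6.509, the others 6.844 to 6.901) and Fabp7 (12.36, the others 12.48 to 12.5). Normal cortex 1 stood apart as the highest array for C1qa (8.909, the others 8.454 to 8.52), Cx3cl1 (12.45, the others 12.26 to 12.27), Eda2r (6.221, the others 5.838 to 5.887), Hprt (11.07, the others 10.59 to 10.66) and Slc17a7 (13.04, the others 12.74 to 12.78). Normal cortex 1 stood apart as the lowest array for Jag1 (7.208, the others 7.471 to 7.524). Normal cortex 2 stood apart as the highest array for Arc (12.02, the others 11.32 to 11.4), Aspg (7.391, the others 7.186 to 7.205), Egr2 (10.45, the others 9.315 to 9.46), Junb (9.307, the others 8.416 to 8.529), Pax6 (8.479, the others 8.239 to 8.276) and Pcna (10.94, the others 10.73 to 10.75). Normal cortex 3 stood apart as the highest array for Esm1 (6.466, the others 6.167 to 6.21) and Igf1r (10.04, the others 9.812 to 9.847). Normal cortex 3 stood apart as the lowest array for Mcm2 (7.518, the others 7.662 to 7.683) and Nid1 (7.193, the others 7.388 to 7.428). Normal cortex 4 stood apart as the lowest array for Dcx (8.613, the others 9.026 to 9.058), Erbb2 (7.066, the others 7.189 to 7.197) and Il10 (5.448, the others 5.572 to 5.587).

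Of 13767 probe sets that name several genes or none, which the comparisons did not use, 749 (5.44%) were called against both normal tissues by the same limma fit, 421 higher and 328 lower.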

How the results depend on the processing

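The count of genes called against both normal tissues (5626) stayed within 1.5 times under 21 of 24 alternatives, which changed the scaling, the low-value filter, the probe set rule or the arrays, and the sign of no named called gene turned in any alternative. With only the 11 arrays compared it was 8801 (4102 higher; 9804 against hippocampus), and with array weights 9752 (4661 higher and 5091 lower; 11289 against cortex and 10906 against hippocampus). At an adjusted p under 0.01 1590 genes were higher. With a 2-fold minimum 3336 were called (1496 higher and 1840 lower; 3999 against cortex and 3735 against hippocampus). In 3807 genes all tumors lay above all normal arrays. Leaving out 1 array gave 4391 to 5268 called genes. Against GFAP cortex tumors the count of 1 was 53 with centring, 29 with quantile normalization, 0 with only those groups' arrays and 2361 without the 4 arrays that stand apart. The count of 63 against GFAP hippocampus tumors was 145 with quantile normalization, 0 with only those groups' arrays and 134 without the 4 arrays. Leaving out 1 SVZ or GFAP cortex tumor gave 1 to 539 against GFAP cortex tumors, and leaving out 1 SVZ tumor gave 3 to 106 against GFAP hippocampus tumors, none of which was left out singly. With the replicate number as a block 6726 genes were called against both normal tissues, 123 against GFAP cortex tumors and 31 against GFAP hippocampus tumors. Whether the numbers pair the samples is not known. Of 1892 counts of list members under the alternatives 1733 were within 1.5 times. Causes were not tested. Signal near the array's background was not separated from absence, since the values carry no detection call.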

Other observations

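The array also measures host transcripts of microRNAs, small RNAs that pair with messenger RNAs through their seed (bases 2 to 8). These genes were examined after their values were seen. Of 297 microRNA genes measured 34 were lower and 4 higher in SVZ tumors than in both normal tissues (12.8% called, limma), a smaller share than over all genes tested (28.2%; 16.1% lower and 12.1% higher). Of the 34, 24 lie on chromosome 12 within 158 kb, an imprinted cluster that neurons express, where 38 were measured, and the median difference of the 34 was -0.994. The probe sets do not tell the arms of a hairpin apart, so both mature sequences are given for 4 genes picked from those called. The sequences are from RefSeq (GRCm38.p6), with the seed in capitals.
mmu-miR-128-1-5p (chr1:128202369-128202389, plus strand): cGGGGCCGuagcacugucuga
mmu-miR-128-3p (chr1:128202404-128202424, plus strand): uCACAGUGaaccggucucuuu
mmu-miR-31-3p (chr4:88910577-88910599, minus strand): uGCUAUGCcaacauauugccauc
mmu-miR-31-5p (chr4:88910614-88910635, minus strand): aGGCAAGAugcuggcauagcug
mmu-miR-382-5p (chr12:109733781-109733802, plus strand): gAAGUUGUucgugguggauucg
mmu-miR-382-3p (chr12:109733819-109733840, plus strand): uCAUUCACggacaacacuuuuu
mmu-miR-134-5p (chr12:109734145-109734166, plus strand): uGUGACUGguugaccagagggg
mmu-miR-134-3p (chr12:109734184-109734203, plus strand): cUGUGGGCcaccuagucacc
Mir128-1, which neurons express, differed by -2.02 (larger limma adjusted p = 0.000788), Mir382 by -1.83 (0.00107) and Mir134 by -1.67 (8.09e-05). Mir31 differed by 1.17 (0.0268). The 4 genes were not chosen by rank: Mir377 (-2.01) fell more than Mir382 and Mir134, and Mir692-1 (1.27) rose more than Mir31. None of the 8 arms shares its seed with another.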
